A study of Mus musculus with 45 samples.

Results

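In TRAP RNA, 10 genes were followed that mark macrophages or encode the factors that draw and feed them, out of the 55401 genes in the count tables. The genes were named and not picked by a cut on measured values, but they were chosen with earlier results of these data known. The 6 macrophage transcripts were C1qa, C1qb, Csf1r, Cd68, Adgre1 and Mrc1, and the 4 attractants and growth factors were Ccl2, Csf1, Il34 and Cx3cl1. The data were RNASeq libraries of translating ribosome affinity purification (TRAP) RNA from 45 mouse kidneys, 1 mouse per library, collected at 7 weeks of age (postnatal day 49). Noncystic mice carried 1 floxed Pkd1 allele (Pkd1fl/+; 8 males and 7 females), Pkd1KO mice carried Pkd1fl/fl (7 males and 8 females), and Pkd1KO+ciliaKO mice carried Pkd1fl/fl with Kif3afl/fl, which also removes cilia (9 males and 6 females). All mice, the controls included, were hemizygous for R26Rpl10a, Pax8rtTA and TetOCre and were given doxycycline by mouth between postnatal days 28 and 42. The EGFP-L10a ribosomal tag was switched on only in nephron tubule cells in which the Pax8rtTA-driven Cre had acted. Macrophages carried no tag in this design, and their transcripts were measured in RNA that was not purified from them.

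Macrophages are resident in the kidney and increase in many forms of kidney injury and in polycystic disease. They depend on the receptor tyrosine kinase CSF1R, which has a pair of ligands, CSF-1 and IL-34, both made by kidney tubule cells under some conditions. The chemokine CCL2 acts on CCR2 to bring in monocytes, and the membrane-bound chemokine CX3CL1 acts on CX3CR1 and is made by endothelial and epithelial cells. C1qa and C1qb encode chains of complement C1q, Cd68 a lysosomal glycoprotein, Adgre1 the F4/80 antigen and Mrc1 the mannose receptor CD206.

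The 250 bases upstream of the start are shown for 3 genes of the list, to give the letters from which a macrophage gene and a growth factor gene are read. Entries were found for 5 of the 10 genes in the RefSeq promoter table (GRCm38.p6), and the 3 shown are those whose window lay wholly before the gene. They are printed 5′ to 3′ on the coding strand, which is the minus strand for all 3, at chr4:136886201-136886450 for C1qb, chr11:69666171-69666420 for Cd68 and chr3:107760470-107760719 for Csf1. Capitals mark matches, on either strand, to the PU.1 core (GAGGAA), to the AP-1 site (TGACTCA) and to the NF-kB site (searched by its name, with degenerate letters).
C1qb: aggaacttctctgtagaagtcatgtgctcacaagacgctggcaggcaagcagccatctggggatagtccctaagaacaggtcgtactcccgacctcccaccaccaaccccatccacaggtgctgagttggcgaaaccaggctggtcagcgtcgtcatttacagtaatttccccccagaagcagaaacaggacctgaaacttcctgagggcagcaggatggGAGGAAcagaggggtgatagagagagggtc
Cd68: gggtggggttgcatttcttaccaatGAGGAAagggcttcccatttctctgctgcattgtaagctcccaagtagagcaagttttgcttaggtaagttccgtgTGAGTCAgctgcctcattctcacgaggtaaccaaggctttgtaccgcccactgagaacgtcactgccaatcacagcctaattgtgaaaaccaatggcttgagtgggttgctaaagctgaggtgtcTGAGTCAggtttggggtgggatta
Csf1: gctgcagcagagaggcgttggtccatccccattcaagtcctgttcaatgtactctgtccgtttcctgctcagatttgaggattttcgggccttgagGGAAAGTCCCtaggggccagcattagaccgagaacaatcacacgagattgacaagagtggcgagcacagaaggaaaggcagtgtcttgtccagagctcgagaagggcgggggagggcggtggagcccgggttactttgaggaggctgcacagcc
The C1qb window held 1 PU.1 core, the Cd68 window 1 PU.1 core and 2 AP-1 sites, and the Csf1 window 1 NF-kB site. None of the 3 held TATAAA. Of 32841 promoter windows of this length, 23.3% held the PU.1 core, 4.46% the AP-1 site, 7.25% the NF-kB site and 12.4% TATAAA. The matches overlapped no other motif searched, and a match describes letters, not bound sites.

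The libraries held 80874556 to 132958186 counts on genes, with a median of 103070359. Each of the 10 genes passed the filter on low counts in both sexes, and the lowest count of any of them in any mouse was 33. In Pkd1KO males, tubule segment markers had the highest summed level of the marker lists, and this summed level was 7137 to 14090 CPM (counts scaled to the size of the library). Kif3a was at 4.83 to 7.54 CPM in Pkd1KO+ciliaKO males and at 14.0 to 29.6 CPM in the other males. The library labelled noncystic female replicate 5 held 6.73 CPM of Kif3a and the library labelled Pkd1KO+ciliaKO female replicate 6 held 20.5 CPM, which goes against both labels. Whole-gene Pkd1 counts overlapped between genotypes (36.7 to 84.8 CPM in noncystic and 33.3 to 51.5 CPM in Pkd1KO males), and they include exons outside the floxed part. In all, 4 male libraries (noncystic replicate 3, Pkd1KO replicate 4, Pkd1KO+ciliaKO replicates 6 and 8) stood apart and lay at -30.2 to -1.13 on the first principal component, between or among the females (-38.4 to -12.9) and away from the other males (14.4 to 40.3).

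Levels per transcript length were compared within each sex in the deposited TPM values, which divide counts by transcript length and library size. In males the medians over 24 mice ran from Csf1r (40.8 TPM), Cx3cl1 (32.9) and Il34 (22.95) through C1qa (10.4), C1qb (6.85) and Csf1 (5.46) to Ccl2 (2.44), Cd68 (1.95), Adgre1 (1.63) and Mrc1 (1.49). In females the order over 21 mice was Cx3cl1 (38.0 TPM), Csf1r (33.0), Il34 (13.8), C1qa (11.1), Csf1 (8.89), C1qb (7.80), Ccl2 (6.00), Cd68 (2.52), Mrc1 (1.98) and Adgre1 (1.94). In both sexes the ranges over mice of each neighbouring pair in these orders overlapped. Csf1r was the only macrophage transcript of the 6 whose median was above that of every attractant in males, and its median was over that of C1qa, the next macrophage transcript, in both sexes.

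The first question was whether macrophage transcripts other than Csf1r differed between genotypes. They did not pass the test in any of the 6 comparisons of genotypes within a sex, and in the male comparisons with Pkd1KO their values were much lower or turned without 1 mouse. In the 3 comparisons of males 5, 3 and 3 of these 5 transcripts had an unadjusted p under 0.05, in the 3 of females 0, and DESeq2 called 0 in each. In both male comparisons with Pkd1KO, DESeq2 had replaced the counts of that mouse for all 5 transcripts. Its result there is thus not a second test with that mouse. Of all genes tested, 22.1%, 19.7% and 24.3% had an unadjusted p under 0.05 in Pkd1KO against noncystic, Pkd1KO against Pkd1KO+ciliaKO and Pkd1KO+ciliaKO against noncystic males, and 16.4%, 27.7% and 21.4% in the same comparisons of females. With the 3 genotypes of males in one fit, 4 of them (Adgre1, C1qa, C1qb and Cd68) were called in Pkd1KO against noncystic males, a fit that includes this mouse. That mouse, Pkd1KO male replicate 4, had 54.4 CPM of C1qa, against 3.26 to 5.12 CPM in the other 6 Pkd1KO males. The values of C1qb were 53.0 CPM and 2.05 to 3.89 CPM, those of Cd68 8.97 and 0.754 to 1.51 CPM, those of Adgre1 20.6 and 1.37 to 2.61 CPM, and those of Mrc1 25.4 and 2.34 to 4.70 CPM. The mouse was 8.18 times (Mrc1) to 17.7 times (C1qb) the median of the other 6. In that library the list of endothelial markers summed to 455 CPM, against 96.3 to 175 CPM in the other 6 Pkd1KO males, and the fibroblast and pericyte list to 1158 against 323 to 596 CPM. Podocyte markers summed to 194 against 70.0 to 94.9 CPM and T cell markers to 20.5 against 3.37 to 4.72 CPM, while tubule segment markers summed to 7137 against 9010 to 14090 CPM. The part of these values in the macrophage transcripts was not tested. In these TRAP libraries the number of cells of a type, the RNA per cell and the share of untagged RNA in the pulldown cannot be told apart.

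**Figure D1:**
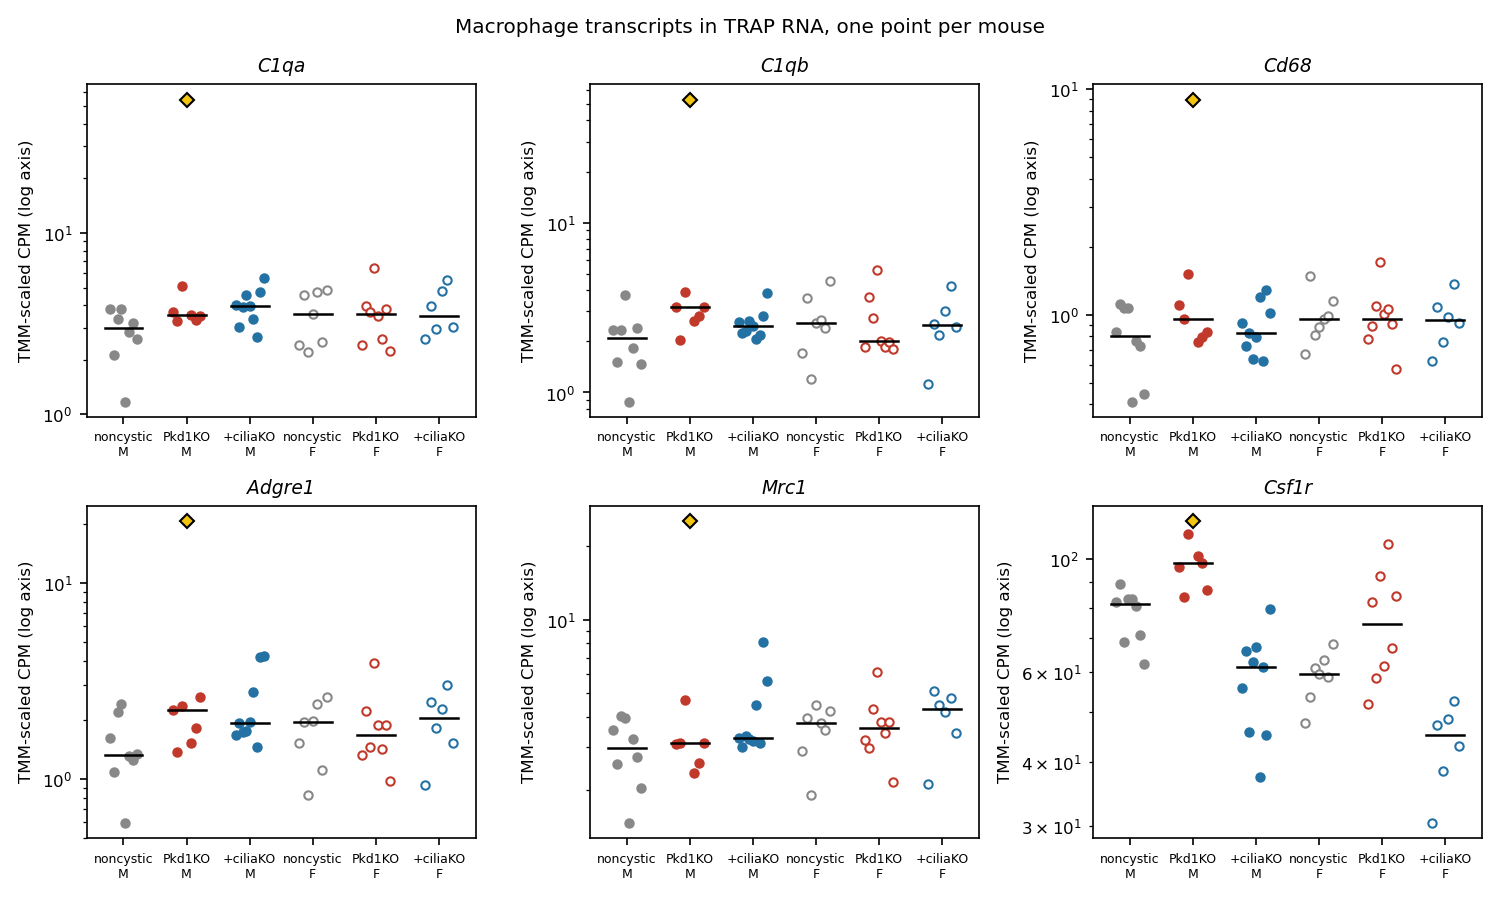
CPM (scaled by the trimmed mean of M values, log axis) of the 6 macrophage transcripts, with 1 point per mouse, filled for males and open for females, and a bar at the median of each of the 6 groups. The yellow diamond is Pkd1KO male replicate 4, which is far above the other males for the 5 transcripts other than Csf1r, where the Pkd1KO males (84.1 to 118 CPM) all lie above the Pkd1KO+ciliaKO males (37.4 to 79.5 CPM).

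C1qa was at 1.17, 3.01 and 3.81 CPM (lowest, median and highest mouse) in noncystic males, at 3.26, 3.52 and 54.4 CPM in Pkd1KO males and at 2.68, 3.93 and 5.67 CPM in Pkd1KO+ciliaKO males. The groups overlapped, and the Pkd1KO median was below the Pkd1KO+ciliaKO median. Against noncystic males the log2 fold change in Pkd1KO males was 1.91 (SE 0.61) with an adjusted p of 0.0772 by the quasi-likelihood test of edgeR, adjusted by Benjamini-Hochberg over all genes, and without replicate 4 it was 0.38 (SE 0.21, adjusted p = 0.399). Against Pkd1KO+ciliaKO males it was 1.43 (adjusted p = 0.163) and without that mouse -0.097, so that its sign turned. C1qb was at 0.882, 2.08 and 3.77 CPM in noncystic, at 2.05, 3.17 and 53.0 CPM in Pkd1KO and at 2.06, 2.47 and 3.84 CPM in Pkd1KO+ciliaKO males. Its log2 fold change in Pkd1KO against noncystic males was 2.26 (SE 0.68, adjusted p = 0.0579), and without replicate 4 it was 0.52 (SE 0.25, adjusted p = 0.297). With this mouse the C1q chains had the largest differences of the 10 genes in this comparison, and they missed the threshold with and without it. C1qb passed in 4 of 25 alternatives, with the 3 genotypes in one fit (adjusted p = 0.0120) and without Pkd1KO replicate 1, 2 or 6 (adjusted p of 0.0396 to 0.0494), all of which include replicate 4. Against Pkd1KO+ciliaKO males C1qb was 1.94 (SE 0.61, adjusted p = 0.0829), and without replicate 4 it was 0.20. There C1qb passed in 1 of 26 alternatives.

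Cd68, Adgre1 and Mrc1 likewise passed neither with nor without this mouse. Their log2 fold changes in Pkd1KO against noncystic males were 1.38 (adjusted p = 0.124), 1.63 (adjusted p = 0.0921) and 1.08 (adjusted p = 0.191), and without replicate 4 they were 0.31 (adjusted p = 0.596), 0.43 (adjusted p = 0.437) and 0.11 (adjusted p = 0.871). Against Pkd1KO+ciliaKO males, the values without that mouse were 0.15, -0.28 and -0.39. In Pkd1KO+ciliaKO against noncystic males, which does not involve replicate 4, the log2 fold changes of the 5 transcripts were 0.16 (Cd68) to 0.71 (Adgre1, SE 0.27, adjusted p = 0.114), and none passed. All 9 Pkd1KO+ciliaKO males were above the noncystic median of Adgre1 (1.32 CPM) and of Mrc1 (2.98 CPM), and 3 of 9 were above every noncystic male for each of these genes; for C1qa 6 of 9 were. In females the same 5 transcripts differed little between genotypes with all mice (SE 0.20 to 0.30), and none was called. Their log2 fold changes lay between -0.023 and 0.083 in Pkd1KO against noncystic, between -0.13 and 0.049 in Pkd1KO against Pkd1KO+ciliaKO, and between -0.044 and 0.19 in Pkd1KO+ciliaKO against noncystic. C1qa, for example, was at 2.21, 3.56 and 4.83 CPM in noncystic, 2.24, 3.56 and 6.42 CPM in Pkd1KO and 2.60, 3.48 and 5.51 CPM in Pkd1KO+ciliaKO females. The last comparison was repeated without noncystic female replicate 5 and Pkd1KO+ciliaKO female replicate 6, whose Kif3a goes against their labels. It then gave 0.34 for Adgre1 (SE 0.31, adjusted p = 0.553), 0.25 for C1qa and 0.24 for Mrc1. C1qb was at -0.028 and Cd68 at -0.044, and none passed.

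Csf1r, which encodes the receptor of CSF-1 and IL-34, behaved differently. It was at 62.2, 81.6 and 89.0 CPM in noncystic males, at 84.1, 98.1 and 118 CPM in Pkd1KO males and at 37.4, 61.4 and 79.5 CPM in Pkd1KO+ciliaKO males. Of the Pkd1KO males, 5 of 7 were above every noncystic male, and all 7 were above every Pkd1KO+ciliaKO male, a separation shown by 0.664% of 15966 genes in this direction. Csf1r rose in Pkd1KO against noncystic males by 0.35 on the log2 scale (SE 0.084, adjusted p = 0.0193) and in Pkd1KO against Pkd1KO+ciliaKO males by 0.77 (SE 0.13, adjusted p = 0.00187). It fell by 0.42 (SE 0.12, adjusted p = 0.0420) in Pkd1KO+ciliaKO against noncystic males, a call that passed in 16 of 27 alternatives and was lost without any of 10 single mice (noncystic replicates 1, 2, 4, 5 and 6 and Pkd1KO+ciliaKO replicates 1, 3, 6, 7 and 8; highest adjusted p = 0.0771). Replicate 4 was at 118 CPM, 1.22 times the median of the other 6, and without it both rises passed, at 0.32 (SE 0.083, adjusted p = 0.0367) and 0.74 (SE 0.13, adjusted p = 0.00446). Without all 4 males that stood apart, Csf1r in Pkd1KO against noncystic males was 0.30 with an adjusted p of 0.0528, while the other 2 comparisons still passed.

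In females Csf1r was at 47.6, 59.5 and 68.0 CPM in noncystic, 52.0, 74.5 and 107 CPM in Pkd1KO and 30.4, 45.2 and 52.7 CPM in Pkd1KO+ciliaKO mice. The order of the medians was that of males, and 7 of 8 Pkd1KO females were above every Pkd1KO+ciliaKO female. It rose in Pkd1KO against Pkd1KO+ciliaKO females by 0.78 on the log2 scale (SE 0.16, adjusted p = 0.00581). Against noncystic females the log2 fold change was 0.36 (SE 0.13, adjusted p = 0.155) in Pkd1KO and -0.43 (SE 0.11, adjusted p = 0.0543) in Pkd1KO+ciliaKO, and neither passed. The test of the sex difference gave -0.0040 (SE 0.19, adjusted p = 0.999) for the first contrast and -0.020 (SE 0.19, adjusted p = 0.988) for Pkd1KO against Pkd1KO+ciliaKO. Csf1r overlaps Hmgxb3 on the opposite strand, and the strandedness of counting was not given in the sources used here. Hmgxb3 differed by -0.087 to 0.067 on the log2 scale in the 6 comparisons of genotypes, with no call.

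**Figure D2:**
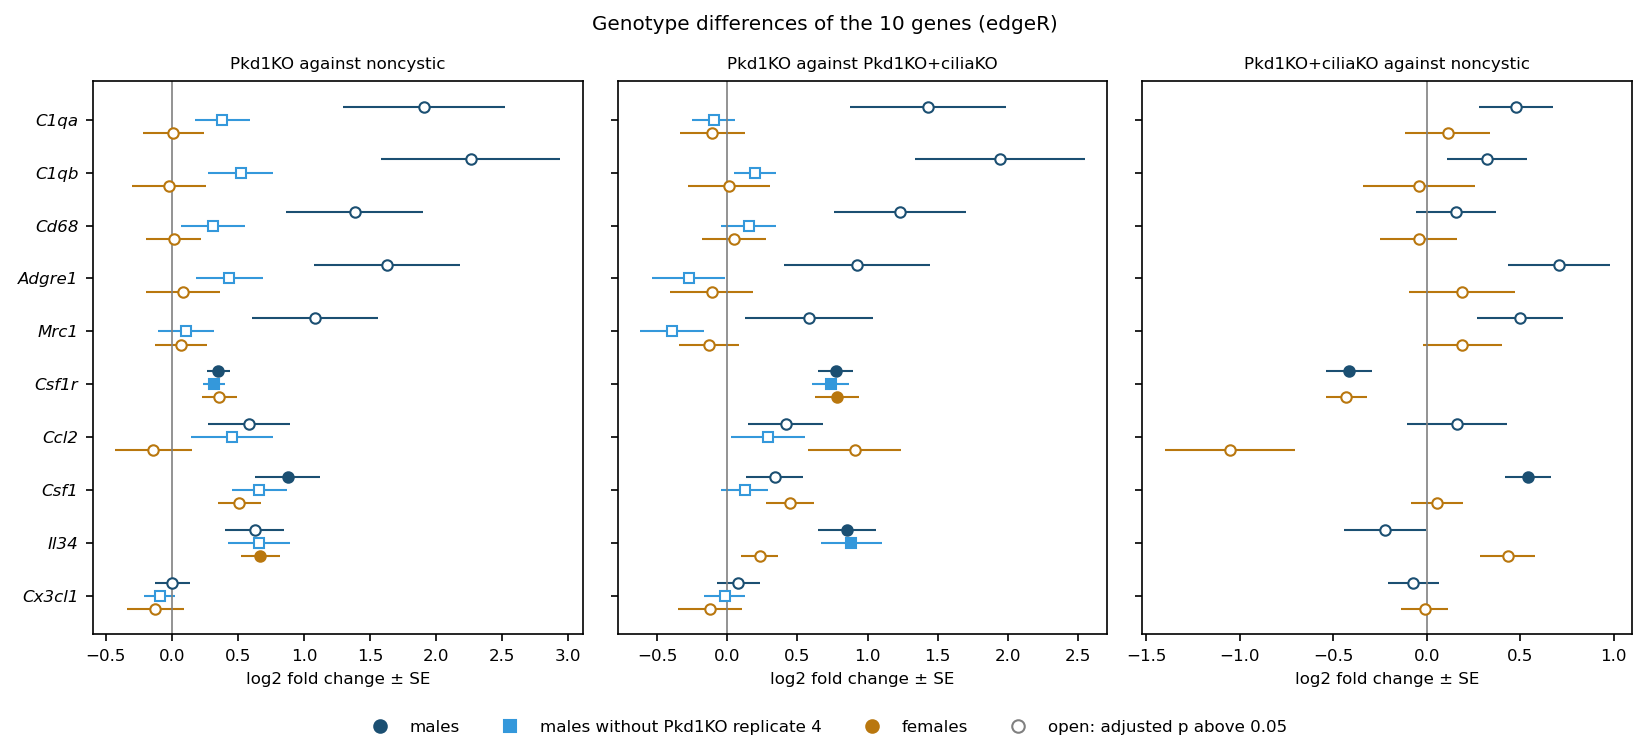
Log2 fold changes of the 10 genes with their standard errors in the comparisons of genotypes, for males and females, with filled points where the adjusted p was at most 0.05. Csf1r was above 0 against both other genotypes in both sexes, with calls in males (0.35 and 0.77) and in females against Pkd1KO+ciliaKO (0.78).

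The CSF1R ligand Il34 (chr8:110741829-110805924, minus strand) was at 6.50, 15.5 and 22.2 CPM in noncystic males, at 13.7, 21.5 and 32.8 CPM in Pkd1KO males and at 7.44, 13.2 and 21.2 CPM in Pkd1KO+ciliaKO males. Of the Pkd1KO males, 3 of 7 were above every noncystic male and 4 of 7 above every Pkd1KO+ciliaKO male. Il34 rose in Pkd1KO against Pkd1KO+ciliaKO males by 0.85 on the log2 scale (SE 0.21, adjusted p = 0.0271), and without replicate 4 by 0.88 (SE 0.22, adjusted p = 0.0309), but without all 4 males that stood apart the value was 0.73 with an adjusted p of 0.0519. The value against noncystic males was 0.63 (SE 0.23, adjusted p = 0.113), and without that mouse 0.66 (adjusted p = 0.144). In females Il34 was at 4.33, 5.23 and 8.18 CPM in noncystic, 7.11, 9.60 and 12.2 CPM in Pkd1KO and 6.32, 8.18 and 9.61 CPM in Pkd1KO+ciliaKO mice. In 6 of 8 Pkd1KO females Il34 was above every noncystic female. The call in females was against noncystic mice, at 0.67 (SE 0.15, adjusted p = 0.0160), and the values in Pkd1KO against Pkd1KO+ciliaKO (0.23, adjusted p = 0.276) and in Pkd1KO+ciliaKO against noncystic (0.43, adjusted p = 0.114) did not pass. Without the 2 females whose Kif3a goes against their labels the last was 0.57 with an adjusted p of 0.0372, a call. The sex differences of these contrasts did not pass either (adjusted p = 0.989, 0.563 and 0.856). Il34 also overlaps Gm15894 and Gm15895 on the opposite strand.

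The other CSF1R ligand, Csf1 (chr3:107741048-107760469, minus strand; its upstream window is printed above), was at 4.94, 7.03 and 9.40 CPM in noncystic males, at 8.23, 10.3 and 24.9 CPM in Pkd1KO males and at 8.81, 10.2 and 11.5 CPM in Pkd1KO+ciliaKO males. Both mutant medians were above the noncystic median, and 8 of 9 Pkd1KO+ciliaKO males were above every noncystic male. Csf1 rose in Pkd1KO against noncystic males by 0.88 on the log2 scale (SE 0.25, adjusted p = 0.0430) and in Pkd1KO+ciliaKO against noncystic males by 0.54 (SE 0.12, adjusted p = 0.00951). The first call was lost without replicate 4 (0.66, SE 0.21, adjusted p = 0.0902), whose 24.9 CPM was 2.58 times the median of the other 6, and it was lost without replicate 3 (21.1 CPM). The 2 mutant genotypes differed by 0.34 (adjusted p = 0.380), and without replicate 4 by 0.12. In females Csf1 was at 9.78, 11.6 and 16.0 CPM in noncystic, 11.7, 16.1 and 25.1 CPM in Pkd1KO and 9.13, 13.1 and 15.9 CPM in Pkd1KO+ciliaKO mice. The log2 fold changes of Pkd1KO females were 0.51 (SE 0.16, adjusted p = 0.102) against noncystic and 0.45 (SE 0.17, adjusted p = 0.0968) against Pkd1KO+ciliaKO, and neither passed.

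**Figure D3:**
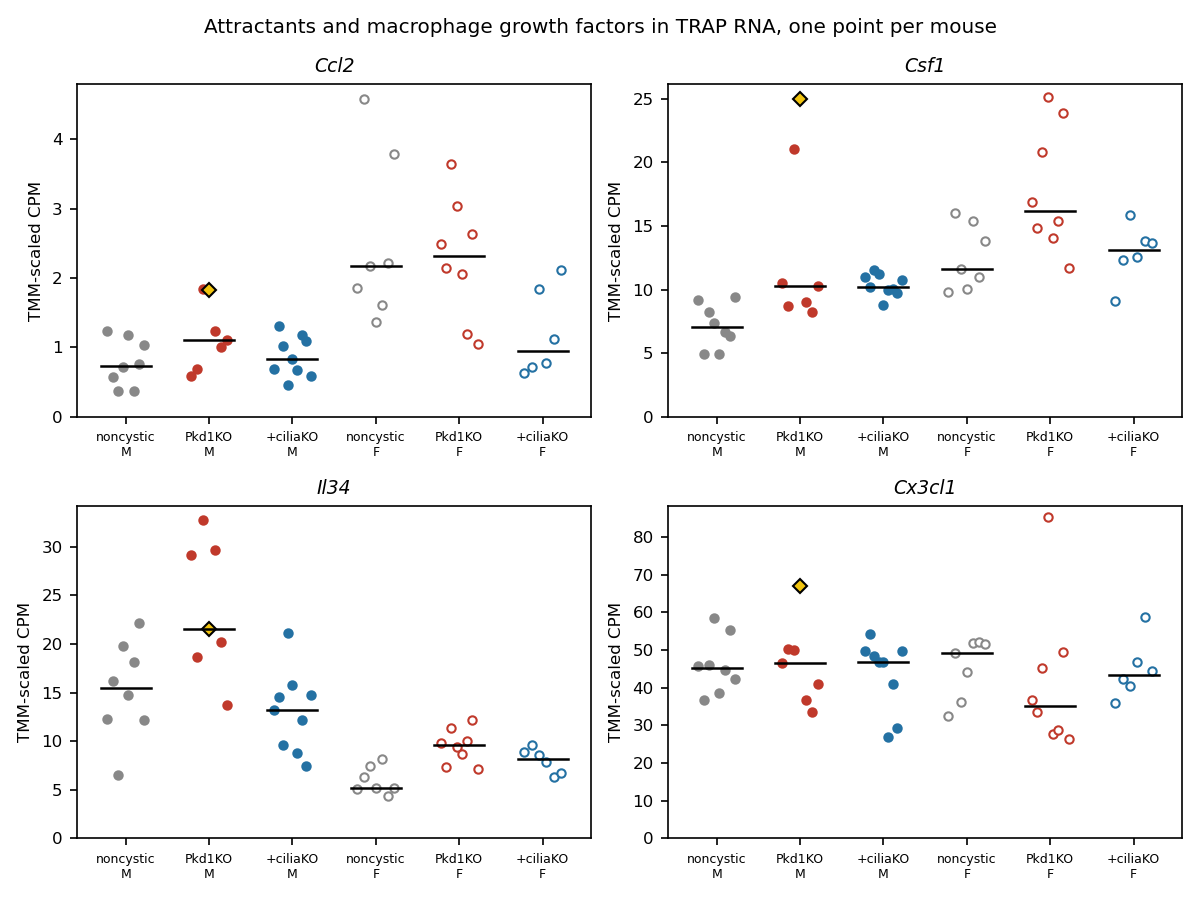
CPM (linear axis from 0) of Ccl2, Csf1, Il34 and Cx3cl1, with 1 point per mouse, filled for males and open for females, a bar at each group median and a yellow diamond for Pkd1KO male replicate 4. Il34 medians were highest in the Pkd1KO group of each sex (21.5 and 9.60 CPM), and Ccl2 was lower in all noncystic males (at most 1.24 CPM) than in all noncystic females (at least 1.36 CPM).

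Ccl2 (chr11:82035571-82037453, plus strand), the ligand of CCR2, was at 0.372, 0.737 and 1.24 CPM in noncystic males, 0.583, 1.11 and 1.84 CPM in Pkd1KO males and 0.463, 0.833 and 1.32 CPM in Pkd1KO+ciliaKO males. The groups overlapped, and the log2 fold change in Pkd1KO was 0.58 against noncystic (SE 0.31, adjusted p = 0.285) and 0.42 against Pkd1KO+ciliaKO males (SE 0.27, adjusted p = 0.404). In females it was at 1.36, 2.17 and 4.58 CPM in noncystic, 1.05, 2.32 and 3.65 CPM in Pkd1KO and 0.626, 0.952 and 2.12 CPM in Pkd1KO+ciliaKO mice. All 8 Pkd1KO females were above the Pkd1KO+ciliaKO median, but the log2 fold change of 0.91 (SE 0.33) had an adjusted p of 0.0855. Pkd1KO+ciliaKO against noncystic females gave -1.06 (SE 0.35, adjusted p = 0.101). Without the libraries labelled noncystic female replicate 5 and Pkd1KO+ciliaKO female replicate 6, Ccl2 in Pkd1KO against Pkd1KO+ciliaKO females was 1.14 (SE 0.33, adjusted p = 0.0400) and in Pkd1KO+ciliaKO against noncystic females -1.38 (SE 0.35, adjusted p = 0.0374), both calls. Ccl2 overlaps Gm17268 on the opposite strand.

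Cx3cl1 (chr8:94772009-94782427, plus strand) did not differ by a call in any comparison. It was at 36.8, 45.2 and 58.6 CPM in noncystic, 33.4, 46.5 and 66.8 CPM in Pkd1KO and 26.8, 46.7 and 54.1 CPM in Pkd1KO+ciliaKO males. In females it was at 32.5, 49.2 and 52.1 CPM, 26.3, 35.1 and 85.2 CPM, and 35.8, 43.4 and 58.6 CPM in the same order. Its log2 fold changes over the 6 comparisons ran from -0.13 to 0.080.

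Of the 10 genes, 2 were called in Pkd1KO against noncystic males (Csf1r and Csf1; 1 without replicate 4, Csf1r), where 6.3% of all genes tested were called. Likewise 2 were called in Pkd1KO against Pkd1KO+ciliaKO males (Csf1r and Il34; 3.77% of all genes) and 2 in Pkd1KO+ciliaKO against noncystic males (Csf1r and Csf1; 8.89%). In females 1 was called in Pkd1KO against noncystic (Il34; 3.34%), 1 in Pkd1KO against Pkd1KO+ciliaKO (Csf1r; 11.7%) and 0 in Pkd1KO+ciliaKO against noncystic by edgeR (2.54%), where 3 had an unadjusted p under 0.05 (21.4% of all genes) and DESeq2 called 3 (8.02% of all genes). The pairs of comparisons that share a genotype share its mice.

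Levels by sex were compared in the noncystic mice. Of the 10 genes, 4 were called, where 27.3% of 16131 genes were. Ccl2 was lower in males (0.372 to 1.24 CPM) than in females (1.36 to 4.58 CPM) by a log2 fold change of -1.67 (SE 0.31, adjusted p = 0.000606), and Csf1 was lower in males (4.94 to 9.40 CPM) than in females (9.78 to 16.0 CPM) by -0.80 (SE 0.15, adjusted p = 0.000779). For both genes the sexes did not overlap, which 2.65% of genes showed in this direction. Il34 was higher in males by 1.37 (SE 0.22, adjusted p = 0.000146), and Csf1r by 0.41 (SE 0.084, adjusted p = 0.00153). Hmgxb3, the gene overlapping Csf1r, was also higher in males, by 0.25 (adjusted p = 0.00278). The ligands of one receptor thus lay in opposite order between the sexes. The other 5 macrophage transcripts differed by -0.36 to -0.26 and Cx3cl1 by 0.031, with no call. In the tests of whether a genotype effect differed between the sexes, 0 of the 10 genes passed by edgeR or by DESeq2. Of all genes, edgeR called 0.0124% in Pkd1KO against noncystic, 0.223% in Pkd1KO against Pkd1KO+ciliaKO and 0.031% in Pkd1KO+ciliaKO against noncystic. At an unadjusted p under 0.05 there were 5, 4 and 2 of the 10 genes, beside 8.26%, 8.19% and 5.48% of all genes. The 5 were the macrophage transcripts other than Csf1r, and 3 of the 4 were C1qa, C1qb and Cd68. These fits include Pkd1KO male replicate 4, in which those transcripts were far above the other Pkd1KO males. In 3 alternatives the sex difference of C1qa in Pkd1KO against noncystic ran from 0.32 to 1.90.

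Of the 7 receptors of the attractants listed, 5 passed the filter and Csf1r was the only one that edgeR called in a comparison of genotypes. DESeq2 also called Cx3cr1, in Pkd1KO against noncystic males (1.67, adjusted p = 0.0412) and in Pkd1KO+ciliaKO against noncystic males (0.86, adjusted p = 0.0388). The shares of all genes that DESeq2 called there are not given here. Ccr2, the CCL2 receptor, was at 0.768, 1.44 and 3.97 CPM in noncystic and 1.23, 2.08 and 14.7 CPM in Pkd1KO males, and Cx3cr1 at 0.662, 1.37 and 2.93 CPM and 1.40, 2.45 and 20.2 CPM. The highest value of each was that of replicate 4. Their log2 fold changes in Pkd1KO against noncystic males were 1.22 (adjusted p = 0.162) and 1.65 (adjusted p = 0.0870), and without that mouse 0.33 and 0.59, with no call. Ackr2 and Ptprz1 were at most 0.368 CPM in every mouse, and Ccr4 and Ackr1 did not pass the filter.

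Of 24 other macrophage transcripts, 22 were tested. In Pkd1KO against noncystic males 4 rose (Lyz2, Msr1, Spi1 and Tyrobp; 4.05% of all genes tested rose), 0 fell, and the median log2 fold change was 1.65 beside -0.0075 over all genes. The share of all genes that rose without replicate 4 is not given here. Without replicate 4, 2 rose, the lysozyme gene Lyz2 (0.88, adjusted p = 0.0405) and the signalling adaptor gene Tyrobp (0.93, adjusted p = 0.0165), and the median was 0.34. In Pkd1KO against Pkd1KO+ciliaKO males none was called by edgeR with or without that mouse, and the median was 0.99 with it and -0.13 without it; 11 of the 22 had an unadjusted p under 0.05 with it, and DESeq2 called 1. In Pkd1KO+ciliaKO against noncystic males 5 of the 22 were called by edgeR (8.89% of all genes) and 7 by DESeq2. The 4 that rose by edgeR were Fcer1g, Fcgr1, Lyz2 and Tyrobp, and 1 fell. In the 3 comparisons of females 0 were called, with medians of 0.017, -0.12 and 0.16, while 3, 2 and 2 had an unadjusted p under 0.05 and DESeq2 called 2, 0 and 0. The shares of all genes called by DESeq2 are not given beside these counts. The DESeq2 counts therefore do not show a change particular to this list.

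Of 24 other attractants, 22 were tested. In Pkd1KO against noncystic males 4 rose with and without replicate 4, namely Ccl20 (mean at most 0.400 CPM, so that no fold is given), Ccl5, Cxcl10 and Cxcl16, with a median of 0.96 and without that mouse of 0.48. Of all genes tested 4.05% rose there with all mice, and the share without that mouse is not given here. Ccl5, a chemokine of T cells and monocytes, rose by 1.81 (SE 0.35, adjusted p = 0.00467) and without replicate 4 by 1.38 (SE 0.25, adjusted p = 0.00376). Cxcl16 rose by 0.56 (SE 0.10, adjusted p = 0.00331) and Cxcl10, a chemokine induced by interferon, by 1.19 (SE 0.29, adjusted p = 0.0191). Against Pkd1KO+ciliaKO males Ccl20, Ccl5 and Cxcl16 rose (1.99% of all genes rose with all mice), and without replicate 4 Ccl5 and Cxcl16 did. Ccl20, Cxcl2, Il1b and Spp1 rose in Pkd1KO+ciliaKO against noncystic males (5.63% of all genes rose). In females Ccl5 rose in Pkd1KO against both noncystic (1.01, SE 0.20, adjusted p = 0.00879) and Pkd1KO+ciliaKO mice (2.17, SE 0.22, adjusted p = 5.63e-05), and Cxcl10 did so too (0.78 and 0.95). Cxcl2 rose against Pkd1KO+ciliaKO females (1.16, adjusted p = 0.0398), and Ccl5 fell in Pkd1KO+ciliaKO against noncystic females (-1.16, adjusted p = 0.0226). Of all genes tested in females, 2.02% rose in Pkd1KO against noncystic and 7.05% in Pkd1KO against Pkd1KO+ciliaKO, and 1.87% fell in Pkd1KO+ciliaKO against noncystic. Ccl2 was not called in females with all mice.

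The transcripts of the list were then compared across mice after the group means of log2 CPM had been subtracted. The 5 macrophage transcripts other than Csf1r varied together, with Pearson's r of 0.59 to 0.89 over their 10 pairs in the 23 males without replicate 4 (0.89 to 0.98 with it) and of 0.73 to 0.92 in 21 females. Csf1r did not vary closely with them, with r of -0.10 to 0.24 in those males and 0.28 to 0.48 in females. With the mean of the other macrophage transcripts, the 5 had r of 0.77 to 0.91 in those males and 0.83 to 0.94 in females, and Csf1r had 0.11 and 0.40. Csf1r, chosen as a macrophage gene, thus followed the macrophage lists less closely than the other 5 did in both sexes. In females its r with each of the 5 was still positive. The same 5 also had r of 0.67 to 0.88 with the endothelial list in those males and 0.72 to 0.83 in females. These points share a library, and the correlations are descriptions.

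**Figure D4:**
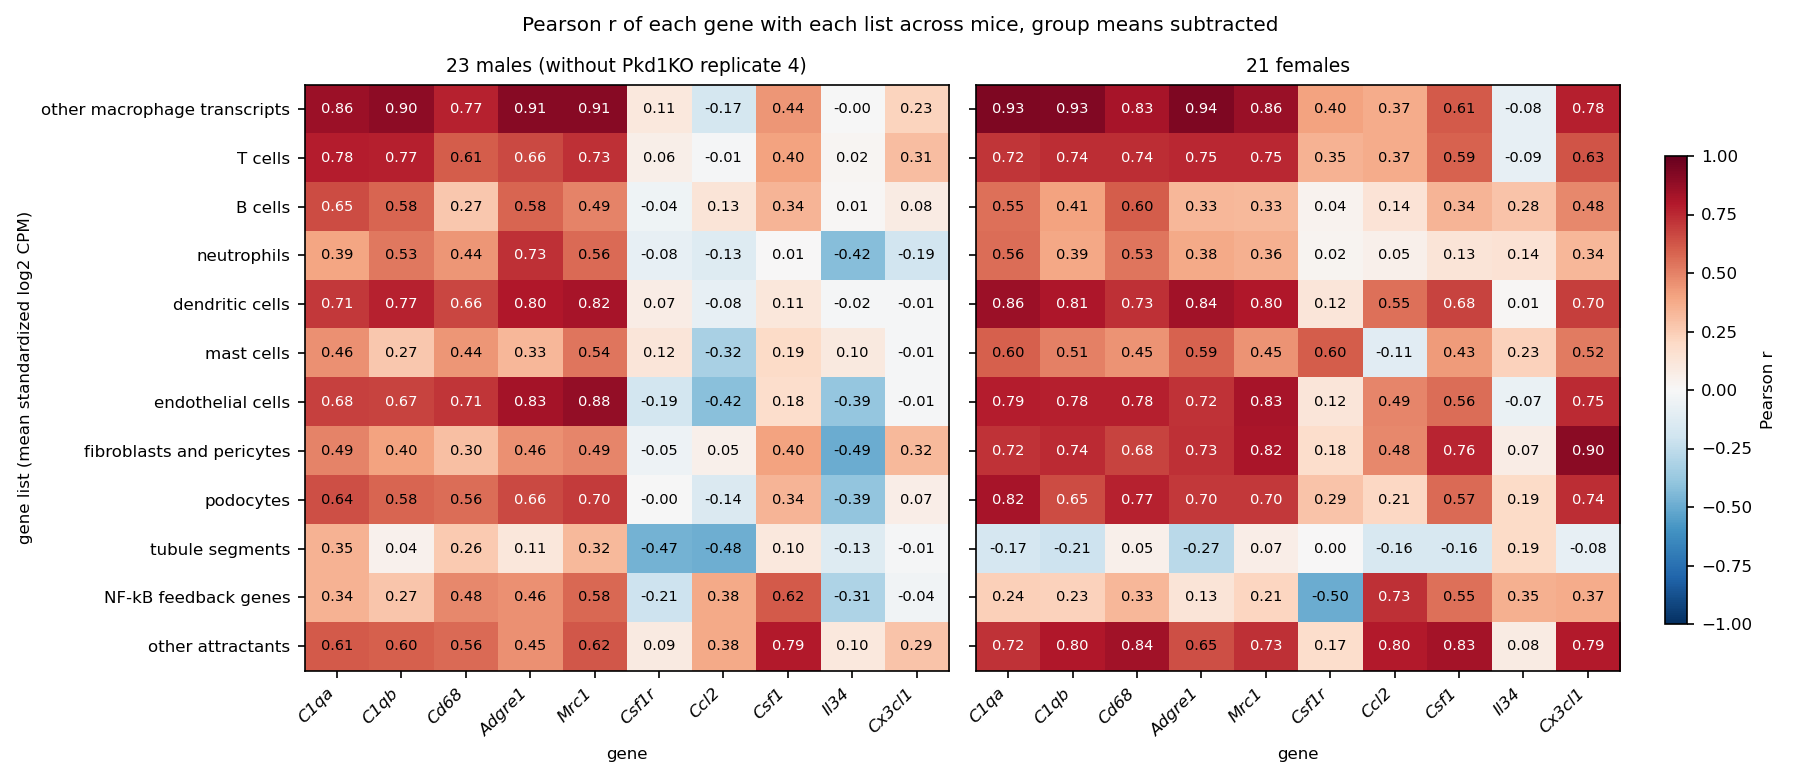
Pearson's r of each of the 10 genes with the mean of each gene list across 23 males (without Pkd1KO replicate 4) and 21 females, after group means were subtracted. The 5 macrophage transcripts other than Csf1r form a block of high r with the other macrophage transcripts (0.77 to 0.94), while Csf1r (0.11 and 0.40) and Il34 (-0.0039 and -0.082) do not.

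Attractants were related to macrophage transcripts across mice in 24 relations per sex, with mice permuted within groups and Benjamini-Hochberg adjustment over the 24. In 24 males 7 relations passed by Pearson's r and 5 by Spearman's rho. Csf1 was related to C1qa (r = 0.76, permutation p = 0.00028, adjusted p = 0.00672; rho = 0.68, permutation p = 0.00134, adjusted p = 0.0161), C1qb (r = 0.71), Adgre1 (r = 0.67) and Mrc1 (r = 0.68), and Cx3cl1 to C1qa (r = 0.52) and C1qb (r = 0.55). Il34 was related to Csf1r (r = 0.60, permutation p = 0.00227, adjusted p = 0.0131; rho = 0.58, permutation p = 0.00486, adjusted p = 0.0389) and not, by this test, to any of the other 5. Without replicate 4, chosen after the data were seen, 2 relations were left by Pearson's r and 1 by Spearman's rho, Csf1 with C1qa (r = 0.61, adjusted permutation p = 0.0266; rho = 0.57, adjusted permutation p = 0.0674) and Il34 with Csf1r (r = 0.63, adjusted permutation p = 0.0266; rho = 0.64, adjusted permutation p = 0.0314), and without all 4 males that stood apart 0 passed, with 8 at an unadjusted p under 0.05. On log2(TPM + 1) the relation of Il34 and Csf1r did not pass (r = 0.42, adjusted permutation p = 0.0952). After the 2 mice farthest from the median of the attractant were left out, r was 0.61 for Csf1 with C1qa, 0.57 for Il34 with Csf1r, and 0.29 to 0.72 for the other 5. In 21 females 10 relations passed by Pearson's r and 9 by rho, namely those of Csf1 (r = 0.55 to 0.67) and Cx3cl1 (r = 0.66 to 0.75) with each of the 5 macrophage transcripts other than Csf1r. Of these, Cx3cl1 with C1qa had r = 0.75 (permutation p = 0.00014, adjusted p = 0.00192; rho = 0.72, permutation p = 0.0005, adjusted p = 0.012). After the 2 farthest mice were left out, r of the 10 was 0.39 to 0.63. Il34 with Csf1r gave r = -0.21 (adjusted permutation p = 0.513) in females, and whether the sexes differ in this relation was not tested.

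**Figure D5:**
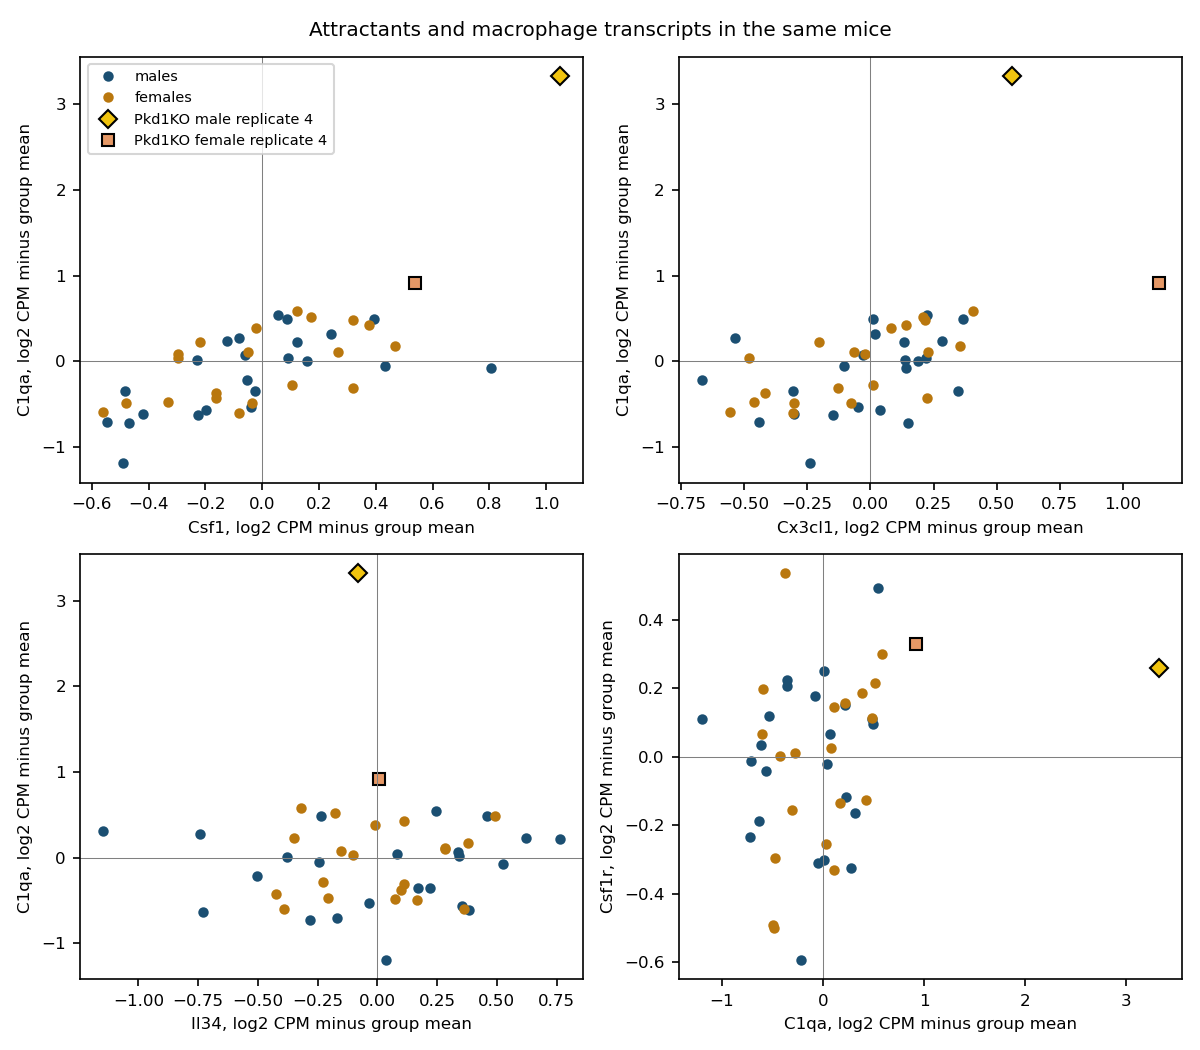
Csf1, Cx3cl1 and Il34 against C1qa, and C1qa against Csf1r, each as log2 CPM minus its group mean, with 1 point per mouse. For Il34 and C1qa r was 0.0015 in males and 0.088 in females, and for Csf1 and C1qa 0.76 and 0.64.

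Markers of other cell types moved with some attractants. In females Cx3cl1 had r = 0.90 with the fibroblast and pericyte list and 0.75 with the endothelial list, and without Pkd1KO replicate 4, the female with 85.2 CPM, 0.91 and 0.70. Csf1 had r = 0.76 with the fibroblast and pericyte list, and Ccl2 had r = 0.73 with the NF-kB feedback genes. Il34 had r between -0.082 and 0.19 with the macrophage, endothelial, fibroblast and tubule lists in females, and in the 23 males r = -0.49 with the fibroblast and pericyte list and -0.39 with the endothelial list. The part of these cell types in the levels of the attractants was not tested, and these libraries do not tell which cells made them.

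The next r, unlike those above, were taken without subtracting group means, and so include differences between genotypes. By the lower of these r over 24 males and over 21 females, genes of like pattern were sought among genes outside all lists. For the mean of the 6 macrophage transcripts they included Fyb, Lrmp, Selplg and Ly86, with r of 0.92 to 0.95 in males, 0.82 to 0.90 in males without replicate 4 and 0.91 in females. For Csf1 they were Tmsb10, Cnn2 and Ntm (r of 0.83 to 0.89 in males, 0.76 to 0.82 without replicate 4 and 0.83 to 0.84 in females). For Il34 they were Angptl1, Atp6v0a2 and Dnajc10 (0.71 to 0.87, 0.70 to 0.87 and 0.67 to 0.70), for Ccl2 Pglyrp2, Anxa3 and Carhsp1 (0.64 to 0.66, 0.57 to 0.59 and 0.68 to 0.76), and for Cx3cl1 P3h3, Loxl1 and Mgp (0.78 to 0.83, 0.72 to 0.79 and 0.86 to 0.94).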

How the data were processed

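Per the labels and the study's methods, the authors trimmed reads with fastp 0.20.0, aligned them to GRCm38.p6 with STAR 2.7.9 and counted them with featureCounts 2.0.0. They deposited raw counts per gene and, for each sex in a separate table, TPM values. The strand setting and the handling of multimapping reads are not given in the sources used here. Tested were the genes of the deposited TPM tables (15991 in males, 15968 in females), each of which had 6 or more counts in 20% or more of that sex's mice. Their counts were scaled by TMM and tested with edgeR 4.0.16 (R 4.3.3), quasi-likelihood test, each pair of groups fitted alone, Benjamini-Hochberg over all genes tested, threshold 0.05. CPM used TMM-scaled library sizes, log2 CPM a prior count of 2 and log2 TPM a pseudocount of 1. Sex differences were interaction terms over all 45 mice. Relations used 100000 permutations within groups. Alternatives used DESeq2 1.42.0 and limma 3.58.1. The test was tested on simulated data. Counts of any 2 mice of the same group differed beyond counting error (chi-square over degrees of freedom at least 44.9). The edgeR p-values set differences between groups against the spread between mice, and those of relations came from permuting mice within groups.

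The genes and lists (receptors, other macrophage transcripts, other attractants, NF-kB feedback genes and marker lists of T cells, B cells, neutrophils, dendritic cells, mast cells, endothelial cells, fibroblasts and pericytes, podocytes and tubule segments) were chosen with earlier results of these data known. Named by rule were the 10 genes, the receptors, the 3 members of each list with the smallest p in Pkd1KO against noncystic mice of either sex, and the genes of like pattern outside all lists (5 for the macrophage transcripts and 3 for each attractant). Other called list members, the genes of like pattern of Csf1r and the correlations with lists were chosen after their values were seen. A few genes of the lists and of like pattern are not reported here.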

Additional observations from a re-analysis of the deposited data

Results flagged for a closer look

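Each of the 10 genes was examined for a mouse far from the others of its group (Dixon's ratio, 95% level), in 60 gene and group pairs, and 10 stood out, where chance gives about 1 in 20. Of these, 5 were Pkd1KO male replicate 4, with 54.4 CPM of C1qa (next highest mouse 5.12), 53.0 of C1qb (3.89), 8.97 of Cd68 (1.51), 20.6 of Adgre1 (2.61) and 25.4 of Mrc1 (4.70). Its Csf1r (118 CPM) and Il34 (21.5 CPM) did not stand out. Pkd1KO female replicate 4 stood out in 4 genes, with 6.42 CPM of C1qa (next 3.96), 1.72 of Cd68 (1.09), 3.90 of Adgre1 (2.21) and 85.2 of Cx3cl1 (49.4). Pkd1KO+ciliaKO male replicate 9 had 3.84 CPM of C1qb (next 2.83).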

How the results depend on the processing

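Alternatives changed 1 setting at a time. The counts of the 10 genes called are given here without the share of all genes called in each alternative. They therefore do not show a change particular to these genes. Csf1r in Pkd1KO against Pkd1KO+ciliaKO passed in all 26 alternatives in males (0.62 to 0.85, highest adjusted p = 0.0177) and all 24 in females (0.65 to 0.84, highest adjusted p = 0.0182), and Il34 in Pkd1KO against noncystic females in all 25 (0.61 to 0.76, highest adjusted p = 0.0399). Csf1 in Pkd1KO+ciliaKO against noncystic males passed in 26 of 27 and in Pkd1KO against noncystic males in 15 of 25 (0.49 to 0.96, adjusted p of 0.00656 to 0.183). The number of the 10 genes called in Pkd1KO against noncystic males was 2, and was 5 with the 3 genotypes in one fit (Adgre1, C1qa, C1qb, Cd68 and Csf1), 0 with limma on log2(TPM + 1), 1 with limma voom, 0 without the 4 males that stood apart and 1 to 3 with each mouse left out. In Pkd1KO against Pkd1KO+ciliaKO males it was 2, was 1 without the 4 males and 1 to 2 with each mouse left out. In Pkd1KO+ciliaKO against noncystic males it was 2, was 1 with the 3 genotypes in one fit, 1 with limma on TPM and 1 to 2 with each mouse left out, the Csf1r call going without any of 10 mice. In females, Pkd1KO against noncystic went from 1 to 2 with DESeq2, Pkd1KO against Pkd1KO+ciliaKO from 1 to 2 with DESeq2 and without the 2 females whose Kif3a goes against their labels (1 to 2 with each mouse left out), and Pkd1KO+ciliaKO against noncystic from 0 to 3 with DESeq2, 1 with limma on TPM, 2 with voom, 2 without the 2 females and 0 to 1 with each mouse left out. The Csf1 call in Pkd1KO against noncystic males was lost without noncystic replicate 2, 4, 5, 6 or 7 or Pkd1KO replicate 3 or 4, and the Il34 call in Pkd1KO against Pkd1KO+ciliaKO males without Pkd1KO replicate 1, 3 or 5 or Pkd1KO+ciliaKO replicate 3. Mice of the same number did not deviate together (r of -0.28 to 0.27; best with its own number in 0 to 2 of 6 to 8 pairs), so they share only a number, and with the replicate block 1, 1, 2, 1, 1 and 0 of the genes were called in the 6 comparisons. In Pkd1KO against Pkd1KO+ciliaKO males the sign turned for Mrc1 (-0.37 with DESeq2, -0.15 with voom, -0.16 without the 4 males, -0.39 to 0.77 with each mouse left out), C1qa (-0.091, -0.094 without the 4 males, -0.097 to 1.59), Adgre1 (-0.27, -0.082, -0.28 to 1.09) and Csf1 (-0.057 with voom), and in the sex difference of that contrast for Mrc1 (-0.012 without the 6 libraries, -0.25 with DESeq2) and C1qa (-0.0045 with DESeq2). DESeq2 replaced the counts of Pkd1KO male replicate 4 for Mrc1, C1qa and Adgre1 in males, as for C1qb and Cd68, and the other causes were not tested. A sign change was not counted where the value with the reported settings was within 1 SE of 0 and neither value passed. Of the 7 relations in males, 0 were left without the 4 males and 2 without Pkd1KO male replicate 4, the latter setting chosen after the data were seen. The lowest count of any of the 10 genes in a mouse was 33 (Ccl2), and the size of difference that such counts can show was not tested.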

Other observations

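Other lists were counted in the same fits, whose shares of all genes called by edgeR and at an unadjusted p under 0.05 are given above. The shares called by DESeq2 are not given for the comparisons with DESeq2 counts below. Those counts therefore do not show a change particular to a list. In Pkd1KO against noncystic males the T cell kinase gene Lck rose (1.43, adjusted p = 0.0415; no call without Pkd1KO replicate 4), as did the NF-kB feedback gene Nfkbie (no call without that mouse), the mast cell receptor gene Ms4a2 (with and without it) and the podocyte gene Wt1 (with and without it), and the tubule genes Atp6v1b1, Cubn and Slc12a1 fell (only Slc12a1 without it). No B cell (4 tested), neutrophil (2), dendritic cell (6), endothelial (8) or fibroblast and pericyte gene (8) was called there by edgeR; 1, 2, 0, 0 and 1 of them had an unadjusted p under 0.05, and DESeq2 called 1, a B cell gene. In Pkd1KO against Pkd1KO+ciliaKO females no endothelial gene was called by edgeR, but 6 of 8 had an unadjusted p under 0.05 (27.7% of all genes). DESeq2 called 5 (share of all genes not given here), and the median log2 fold change was -0.47. Against Pkd1KO+ciliaKO males the T cell gene Cd8a rose (1.04, adjusted p = 0.0292) with and without that mouse. The tubule gene Slc12a1 fell there, but not without that mouse. In Pkd1KO+ciliaKO against noncystic males Nfkbie, Relb, the B cell gene Cd79b, Ms4a2, Tpsb2 and Synpo rose, and Cubn and Lrp2, genes of endocytic receptors of the proximal tubule, fell. In females Ms4a2 rose in Pkd1KO against both other genotypes, the dendritic cell gene Zbtb46 and Slc12a1 fell in Pkd1KO against Pkd1KO+ciliaKO mice, and no gene of these lists was called in Pkd1KO+ciliaKO against noncystic mice by edgeR. Of the 3 genes of each list with the smallest p in Pkd1KO against noncystic mice, Birc3, Cd3e, Cd3d, Cd22, Pax5, S100a9, Csf3r, Itgax, Cd209a, Hdc, Cdh5, Egfl7, Pecam1, Postn, Col3a1 and Col1a1 were called in none of the 6 comparisons.

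Csf1r-like genes were sought after its values were seen. The 5 genes outside all lists with the most similar pattern were Gdpd3, Aqp7, Asah1, Lgals1 and Gm853, with r of 0.82 to 0.86 over 24 males, 0.80 to 0.87 without Pkd1KO replicate 4 and 0.82 to 0.94 over 21 females. Among them are Aqp7, which encodes an aquaglyceroporin of the proximal tubule, and Asah1, which encodes acid ceramidase. Group means were not subtracted here, so these r include differences between genotypes. Which cells the Csf1r RNA came from was not tested.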
